A study of Mus musculus with 15 samples.

Results

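C/D box small nucleolar RNAs (snoRNAs) are short RNAs of the nucleolus that were taken here as every gene of the deposited table whose name is Snord followed by a digit. The table held 59 such transcripts under 58 gene names, and the median over transcripts was used as a gene's value. Of these, the 42 whose average across the 5 groups reached 1 RPKM are described, out of 17481 genes of any kind that passed the same filter. RPKM is the number of reads per kilobase of transcript, scaled to the mapped reads of a library. The members nearest to the limit were Snord111 (mean of 1.02 RPKM) and Snord42b (1.29 RPKM), and the first names left out were Snord96a (0.82 RPKM) and Snord88a (0.81 RPKM). The other 14 names left out had means between 0.07 and 0.77 RPKM.

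RNA was sequenced from the hypothalamus of mice of the outbred CD-1 stock at postnatal day 15. By its title, the study asks whether thyroid hormone acts across generations, down to the F2. There were 15 samples in 5 groups of 3, Control, PGM, PGF, HM and HF, and these codes are used as given because the labels spell out no treatment, parentage or sex for them. All groups share the stock, the age and the tissue. Only the authors' mean of each group was used, so no difference below has a replicate check, an SD or a p-value, and whether 1 sample carried a difference cannot be told.

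A C/D box snoRNA carries a C box near its 5′ end and a D box near its 3′ end, which the proteins fibrillarin, Nop56, Nop58 and Snu13 bind. Most guide fibrillarin to add a methyl group to the 2′ oxygen of a chosen nucleotide of ribosomal RNA or of the spliceosomal U6 RNA, and a few take part in cutting the ribosomal RNA precursor. In mice nearly all are cut out of the introns of host genes, many of which encode ribosomal proteins or are noncoding genes kept for their introns. Snord116 is transcribed from the paternal allele of the Snrpn locus in neurons and is known from Prader-Willi syndrome.

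Sequences were found for 41 of the 42 genes in the GENCODE M21 transcripts (GRCm38, the assembly also called mm10), and Snord116 was not matched by name. The genes below are shown because they are the most abundant, differ most between groups or form near-identical pairs. Capitals mark an exact C box core, TGATGA, beginning within the first 25 bases and an exact D box, CTGA, within the last 15 bases, on the strand of the gene.
Snord22: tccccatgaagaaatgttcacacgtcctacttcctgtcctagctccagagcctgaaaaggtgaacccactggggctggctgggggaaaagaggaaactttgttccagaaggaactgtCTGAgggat
Snord17: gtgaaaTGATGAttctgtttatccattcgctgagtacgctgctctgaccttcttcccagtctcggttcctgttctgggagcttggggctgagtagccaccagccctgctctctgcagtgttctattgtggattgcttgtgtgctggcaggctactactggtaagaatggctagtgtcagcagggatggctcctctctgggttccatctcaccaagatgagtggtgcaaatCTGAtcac
Snord15a: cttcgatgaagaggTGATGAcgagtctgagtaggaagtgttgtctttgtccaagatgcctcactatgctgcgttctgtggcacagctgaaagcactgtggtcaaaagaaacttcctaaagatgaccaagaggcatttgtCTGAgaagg
Snord15b: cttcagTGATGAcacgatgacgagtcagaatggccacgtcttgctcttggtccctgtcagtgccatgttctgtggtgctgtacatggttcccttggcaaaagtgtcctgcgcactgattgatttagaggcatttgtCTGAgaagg
Snord16a: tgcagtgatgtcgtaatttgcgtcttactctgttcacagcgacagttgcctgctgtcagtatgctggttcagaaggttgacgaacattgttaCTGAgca
Snord104: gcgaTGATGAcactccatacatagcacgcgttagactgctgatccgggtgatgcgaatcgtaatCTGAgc
Snord8: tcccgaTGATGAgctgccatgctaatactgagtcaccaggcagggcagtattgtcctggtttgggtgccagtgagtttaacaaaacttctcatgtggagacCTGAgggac
Snord23: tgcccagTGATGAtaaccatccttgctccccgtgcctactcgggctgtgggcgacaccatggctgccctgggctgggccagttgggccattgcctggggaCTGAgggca
Snord49a: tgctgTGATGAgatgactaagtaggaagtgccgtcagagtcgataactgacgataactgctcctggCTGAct
Snord49b: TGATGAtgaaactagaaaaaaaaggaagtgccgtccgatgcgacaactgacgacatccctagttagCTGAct
Snord67: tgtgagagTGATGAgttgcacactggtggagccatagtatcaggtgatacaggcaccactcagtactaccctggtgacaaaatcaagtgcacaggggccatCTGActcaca
Snord87: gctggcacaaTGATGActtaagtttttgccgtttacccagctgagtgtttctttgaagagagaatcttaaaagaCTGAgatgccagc
Snord1b: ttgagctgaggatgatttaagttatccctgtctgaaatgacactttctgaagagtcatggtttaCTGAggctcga
Snord1c: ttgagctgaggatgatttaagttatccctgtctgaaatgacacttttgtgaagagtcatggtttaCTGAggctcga

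The D box was found in 40 of 41 members and the C box core in 28 of 41, with both in 27. Among all 98 Snord transcripts of the annotation, 71.4% held the C box core and 93.9% the D box, against 0 and 7.14% of 42 H/ACA snoRNA (Snora) transcripts, the other large class of snoRNAs. A search for exact letters misses variant boxes, as in Snord22, where no C box core was found. The members shown lie at chr19:8725866-8725991 (Snord22, plus strand), chr2:144265979-144266216 (Snord17, minus strand), chr7:99482785-99482932 (Snord15a, minus strand), chr7:99479563-99479707 (Snord15b, minus strand), chr9:64175423-64175521 (Snord16a, plus strand). Further members shown lie at chr11:106500993-106501062 (Snord104, plus strand), chr14:52209785-52209894 (Snord8, minus strand), chr7:15938762-15938870 (Snord23, minus strand), chr11:62603450-62603521 (Snord49a, plus strand), chr11:62603079-62603150 (Snord49b, plus strand). The last 4 lie at chr2:91596070-91596180 (Snord67, plus strand), chr1:9942463-9942549 (Snord87, minus strand), chr11:116674148-116674222 (Snord1b, plus strand) and chr11:116672506-116672581 (Snord1c, plus strand).

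Of the 41 members with a position, 38 lay within the same-strand span of a gene that the table also lists, 31 host genes in all. The hosts encode ribosomal proteins for 12 members and the snoRNP proteins Nop56 and Nop58 for 3, and 9 members lie in noncoding hosts such as Snhg1 and Gas5. The sequences of 14 members, Snord22, Snord16a and Snord15b among them, stand whole within at least 1 annotated transcript of the host. Reads of such a snoRNA can then also count for its host, with the authors' way of dividing them not given in the sources used here.

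The 42 genes spanned more than 3 orders of magnitude. A group of 4 members lay above 1000 RPKM and held 83.8% of the summed RPKM of the list, another 5 lay between 100 and 1000, 11 between 10 and 100, and 22 under 10 RPKM. The median member had 9.41 RPKM, against 72.4 RPKM for the 33 H/ACA genes that passed the filter and 18.8 RPKM for all genes. Longer members had higher levels: the 14 members of at least 90 bases had a median of 81.5 RPKM and the 27 shorter ones 4.40 RPKM. Across the 41 genes, which share the same libraries and are not independent replicates, length and log2 level had a Pearson correlation of 0.67, and Spearman's rho of length and level was 0.44. Of the 8 members with a known length that reached 100 RPKM, 7 had at least 90 bases, and the exception was Snord104 with 70.

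**Figure D1:**
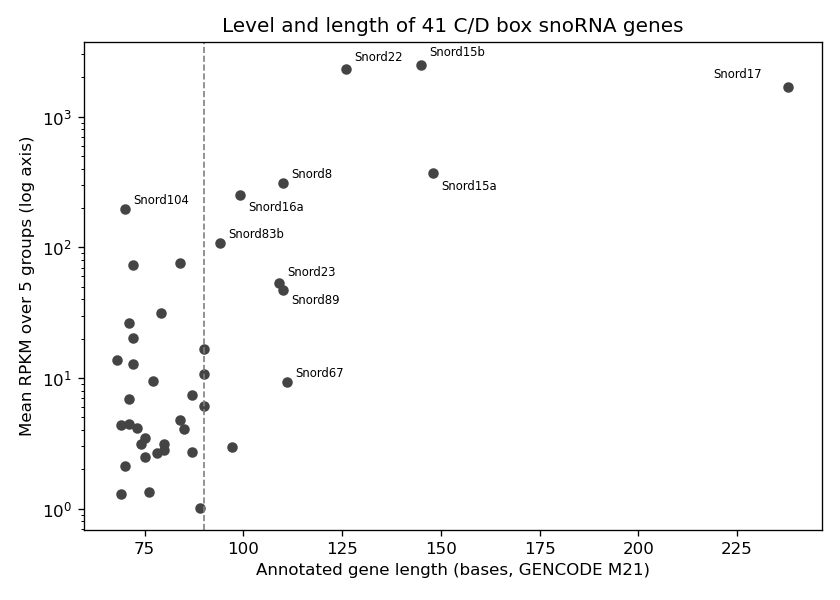
Mean RPKM over the 5 groups (log axis) against annotated length in bases for 41 C/D box snoRNA genes, 1 point a gene, with a dashed line at 90 bases. Genes of at least 90 bases had a median of 81.5 RPKM and shorter genes 4.40 RPKM, and Snord104 stands out among the short genes.

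Depth behind the low values was read from the table itself. The smallest listed values of short RNA genes were multiplied by length, and those within a fixed narrow window were kept. Their median was taken as 1 step in each group, between 0.277 and 0.291 RPKM for a gene of 75 bases. Because the window bounds this median, the step is an assumption and was not tested. If a step is 1 read in 1 of the 3 samples, values can be turned into approximate read equivalents, the summed reads of a group. By this reckoning 17 members had under 20 read equivalents a group on average and 13 had at least 100. Low members varied more: the ratio of the highest to the lowest group had a median of 2.06 under 10 RPKM and 1.40 above it.

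Snord15b, a guide for the large ribosomal subunit RNA in an intron of the ribosomal protein gene Rps3, was the most abundant member, with 2439 RPKM in Control, 2424 for PGM, 2490 for PGF, 2555 for HM and 2634 for HF. Snord116 was at 2291 RPKM in Control, 2202 for PGM, 2277 for PGF, 2392 for HM and 2416 for HF. These levels hardly moved, with a highest group 1.09 and 1.10 times the lowest. Snord116 stands in 1 row of the table while the annotation lists 17 copies named Snord116l, so which copies its value covers cannot be told. Snord17, a guide for the large subunit RNA in the sorting nexin gene Snx5, was at 1524 RPKM in Control, 1765 for PGM, 1882 for PGF, 1646 for HM and 1701 for HF.

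Snord22 varied most among the members above 100 RPKM. This RNA, also called U22, is required for cutting the precursor of the small subunit RNA and does so without a known methylation target. It was at 1778 RPKM in Control, 2456 for PGM, 3357 for PGF, 1835 for HM and 2192 for HF, so that PGF stood well above the other groups and HM close to Control. Snord16a, a guide for the small subunit RNA in the ribosomal protein gene Rpl4, had nearly the same order with 190.5 RPKM in Control, 258 for PGM, 337 for PGF, 244 for HM and 235 for HF. Snord23, in the nucleolar gene Gltscr2 (now Nop53), was at 39.0 RPKM in Control, 58.0 for PGM, 73.5 for PGF, 43.5 for HM and 55.5 for HF. Snord104, a guide for the large subunit RNA, was at 160 RPKM in Control, 194 for PGM, 245 for PGF, 192 for HM and 201 for HF. In all 4 genes Control was lowest and PGF highest.

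Most other members varied little or rest on few reads. Snord15a, the neighbour of Snord15b in Rps3 and 66.0% identical to it, was at 347 RPKM in Control, 344 for PGM, 374 for PGF, 369 for HM and 413 for HF. Snord83b, in the ribosomal protein gene Rpl3, was at 98.6 RPKM in Control, 115 for PGM, 105.23 for PGF, 111 for HM and 116 for HF, with Control lowest by a small margin. Snord89 was also lowest in Control, at 36.0 RPKM against 47.7 to 50.5 in the other groups, and so was Snord55, at 26.3 against 30.1 to 35.2. Snord12, in the noncoding gene Zfas1, spanned 9.12 to 12.7 RPKM. Snord47, in the noncoding gene Gas5, was at 9.35 RPKM in Control, 6.18 for PGM, 8.29 for PGF, 12.0 for HM and 11.3 for HF, lowest in PGM. Snord123 was the steadiest of the low members, at 4.13 to 4.78 RPKM. The remaining low members were Snord2, Snord85, Snord71, Snord66, Snord100, Snord7, Snord69 and Snord42b, with means from 1.29 to 4.40 RPKM and 4 to 16 read equivalents a group on average.

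**Figure D2:**
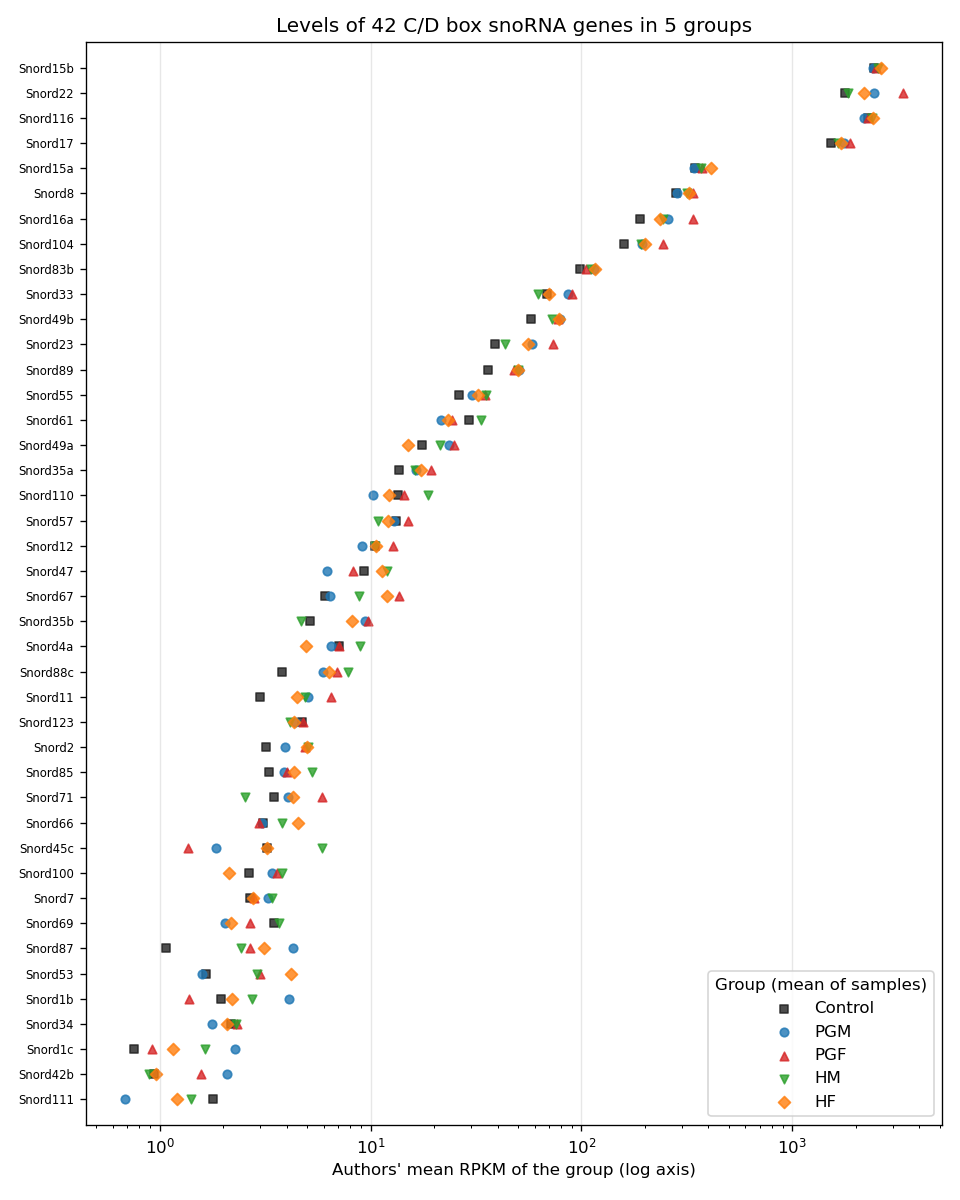
Authors' mean RPKM (log axis) of each group for the 42 C/D box snoRNA genes, ordered by their mean; each symbol is 1 group mean and the value of 0 for Snord111 in PGF is not drawn. Control (squares) is the lowest group in 19 genes and PGF (upward triangles) the highest in 17.

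Over all 42 members Control was the lowest group in 19 (45.2%) and the highest in 1, and PGF was the highest in 17 (40.5%). Among all 17481 genes Control was lowest in 23.5% and PGF highest in 13.4%. The 20 members of at least 10 RPKM had Control lowest in 11 and PGF highest in 11. The H/ACA genes had the same order more often, with Control lowest in 26 of 33 and PGF highest in 25 of 33. Differences below subtract log2(RPKM + 0.5) of the reference from that of the group compared, a scale that understates the differences of low genes, and a gene was counted when they reached 1.5-fold. The 4 comparisons with Control use the same Control samples and are not independent.

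PGF differed most from Control. In this comparison 33 of 41 members were higher and 8 lower, against 7720 of all 17479 genes higher and 9718 lower. The median difference was 0.30 for members, against -0.03 over all genes. At 1.5-fold, 11 members were higher, 26.8% of them against 2.15% of all genes, and 1 was lower, against 1.89% of all genes. Snord22 was 1.89-fold higher (difference 0.92), Snord23 1.87-fold (0.91), Snord16a 1.76-fold (0.82) and Snord104 1.53-fold (0.61). These were the counted members above 10 RPKM, and they rest on 197 or more read equivalents in each group. The other counted genes that were higher lay under 10 RPKM, led by Snord67 (difference 1.10) and Snord87 (1.02).

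Snord67 guides methylation of U6 RNA from an intron of the microtubule gene Ckap5. It was at 6.10 RPKM in Control, 6.41 for PGM, 13.7 for PGF, 8.84 for HM and 11.9 for HF, which corresponds to 31, 33, 73, 46 and 63 read equivalents. PGF and HF were thus high and Control and PGM low. Snord11, a guide for the small subunit RNA in the snoRNP protein gene Nop58, was at 2.99 RPKM in Control, 5.07 for PGM, 6.48 for PGF, 4.86 for HM and 4.47 for HF. Snord45c, in the Rabggtb gene, was the counted member that was lower in PGF, with 3.23 RPKM in Control, 1.85 for PGM, 1.36 for PGF, 5.90 for HM and 3.21 for HF, or 5 read equivalents in PGF and 22 for HM. Snord111 was listed at 0 in PGF and at 0.68 to 1.79 RPKM in the other groups, so it has no fold there.

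The H/ACA genes were shifted further in the same comparison, with a median difference of 0.78 and 21 of 33 counted higher. Rnu11 and Rnu12, the U11 and U12 RNAs of the minor spliceosome, were also highest in PGF, at 994 and 985 RPKM against 204 and 191 in Control. The vault RNA gene Vaultrc5 was at 135 RPKM against 25.4. The more abundant small RNA genes Rnu1b2, Rpph1 and Rmrp differed less from Control in PGF, by 0.41, 0.36 and 0.20. Rnu1b2 was highest in PGM. PGF also had high pituitary hormone RNA, a summed level of 1621 RPKM for Gh, Prl, Cga and Tshb against 37.3 to 87.1 RPKM in the other groups, with Prl listed at 0 in HF. The summed level of the choroid plexus genes Ttr, Kl and Folr1 was 453 RPKM in PGF against 14.3 to 114, nearly all of it Ttr. That of 5 oligodendrocyte genes was 11196 RPKM against 5351 to 8867, and that of 2 erythroid genes 1008 RPKM against 601 to 1392. Hypothalamic markers were present in every group, with 9 genes summing to between 1428 RPKM in PGF and 2109 in Control. Of the 9, 6 were lower by 1.5-fold in PGM and in PGF, against 2.29% and 1.89% of all genes. Pmch was higher in both groups, by 0.17 and 0.20, and Hcrt was higher in PGF by 0.16. In HM and in HF, 4 of the 9 were higher than in Control and 5 lower. The 4 neuronal markers summed to between 2158 and 2433 RPKM. The part of these tissue differences in the snoRNA differences was not tested, and in RNA from whole tissue a change in the share of a cell type cannot be told apart from a change of RNA per cell.

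**Figure D3:**
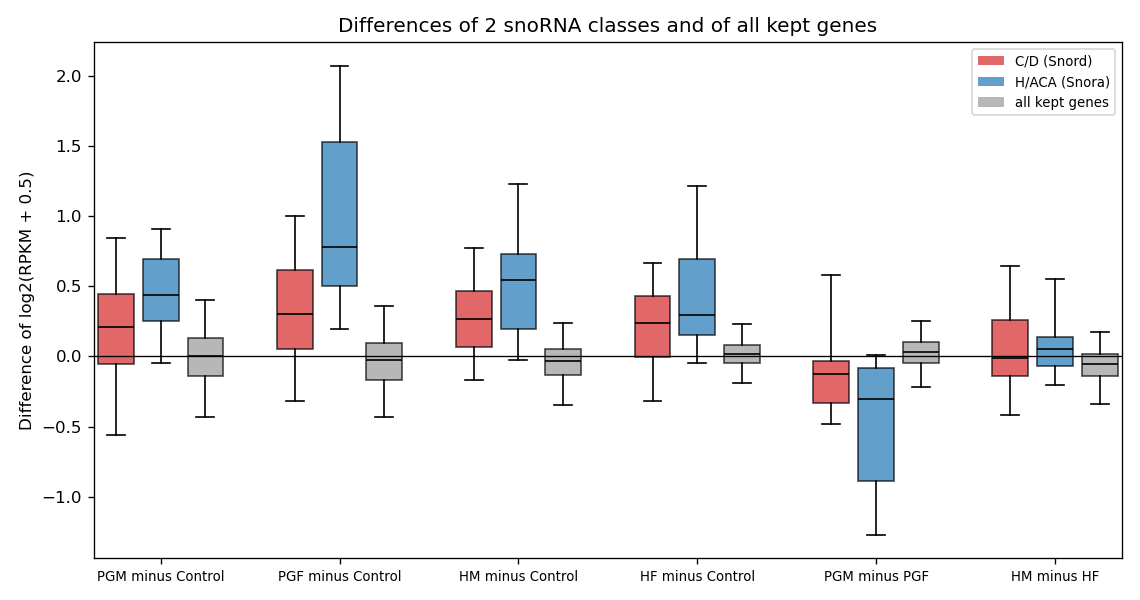
Differences of log2(RPKM + 0.5) in 6 comparisons for C/D genes, H/ACA genes and all kept genes; boxes span the quartiles, the line is the median and whiskers reach from the 5 to the 95 percent quantile over genes, which are not replicates. C/D medians against Control lie between 0.21 and 0.30, below those of H/ACA genes and above those of all genes.

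PGM showed a smaller shift of the abundant members. Here 26 of 42 members were higher and 16 lower than in Control, against 8901 of all 17480 genes higher and 8534 lower. The member median was 0.21, against 0.005 over all genes. Without the filter on low values the median over the 58 names was 0.051. At 1.5-fold 7 were higher (16.7%, against 2.34% of all genes) and 3 lower (7.14%, against 2.29%), and each of the 10 lay under 10 RPKM. Of the abundant genes, Snord23 differed by 0.57, Snord89 by 0.48, Snord22 by 0.47, Snord49b by 0.45 and Snord16a by 0.44, all under 1.5-fold. The summed level of 5 thalamic genes was 292 RPKM in PGM, 281 for PGF and 149 for HM, against 93.2 in Control and 93.3 for HF. That of 5 striatal and cortical genes was 137 RPKM in PGM and 106 for PGF, against 47.2 in Control, 69.0 for HM and 70.4 for HF. Their part in the differences was not tested. Snord61, a guide for the small subunit RNA in the X-linked gene Rbmx, went the other way, at 29.2 RPKM in Control, 21.6 for PGM, 24.3 for PGF, 33.4 for HM and 23.3 for HF.

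Snord87 had the largest difference in PGM, 1.60. This guide for the large subunit RNA, in the noncoding gene Snhg6, was at 1.07 RPKM in Control, 4.27 for PGM, 2.69 for PGF, 2.42 for HM and 3.12 for HF. Control was the low group, on 4 read equivalents against 10 to 17 in the others. Snord1b and Snord1c followed, at 1.96 and 0.75 RPKM in Control, 4.12 and 2.28 for PGM, 1.38 and 0.92 for PGF, 2.75 and 1.64 for HM and 2.20 and 1.16 for HF. In the same order of groups these were 7, 14, 5, 10 and 8 read equivalents for Snord1b and 3, 8, 3, 6 and 4 for Snord1c. The pair is 97.4% identical over its alignment, so reads that miss the differing bases cannot be told apart and the parallel values are not separate evidence. Lower at 1.5-fold were Snord111 (-0.96), Snord45c (-0.67) and Snord69 (-0.65).

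**Figure D4:**
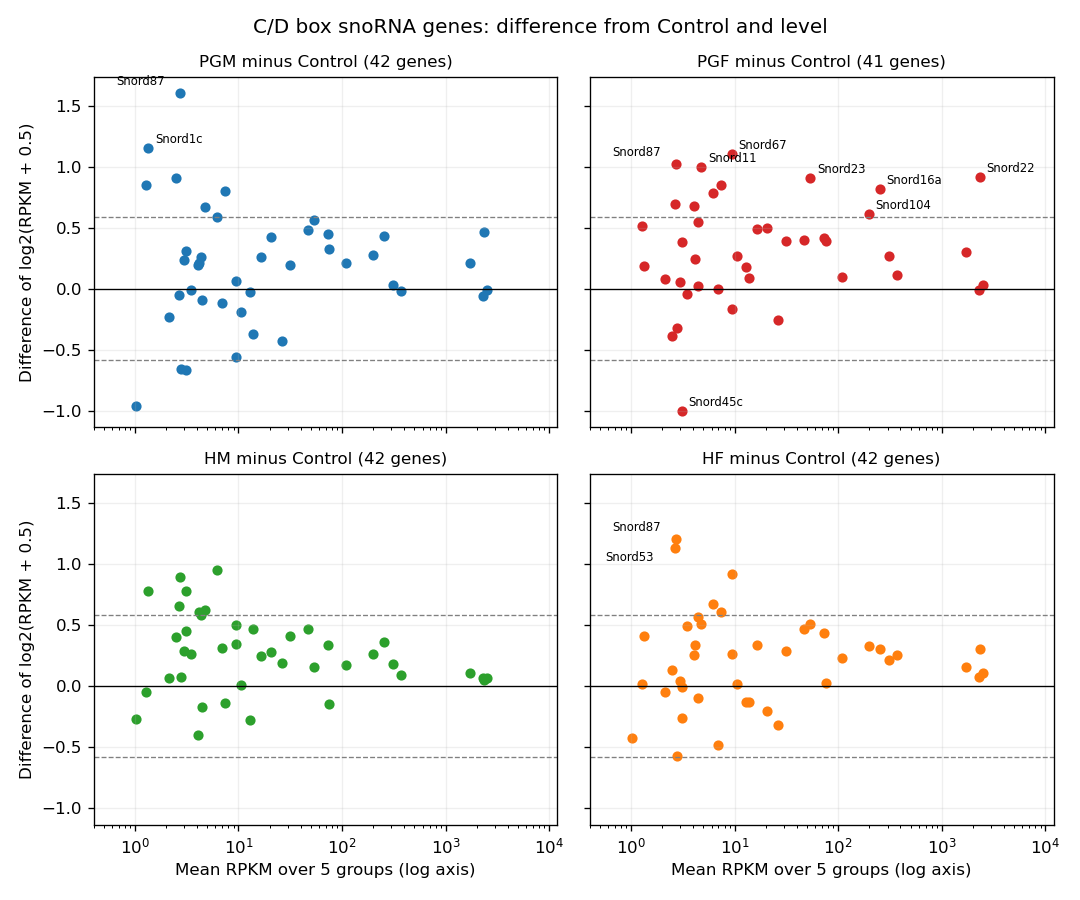
Difference of log2(RPKM + 0.5) from Control in each of 4 groups against the mean RPKM over the 5 groups (log axis), 1 point a gene; dashed lines mark 1.5-fold. Points beyond the lines lie under 10 RPKM in PGM, HM and HF, while PGF also has Snord22, Snord16a, Snord104 and Snord23 beyond them.

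In HM 35 of 42 members were higher than in Control, the most of the 4 groups, against 6957 of all 17480 genes. The member median was 0.26, against -0.03 over all genes. At 1.5-fold 7 were higher (16.7%, against 0.669% of all genes) and 0 lower (against 0.87%), and the 7 lay under 10 RPKM. Snord88c differed most, by 0.95, with 3.79 RPKM in Control, 5.96 for PGM, 6.90 for PGF, 7.79 for HM and 6.32 for HF, so that Control was lowest. The abundant members differed little: the 9 of at least 100 RPKM were all higher, by 0.05 to 0.36, with Snord22 at 0.05 and Snord16a at 0.36. Snord110, a guide for the small subunit RNA in the snoRNP protein gene Nop56, was at 13.4 RPKM in Control, 10.3 for PGM, 14.3 for PGF, 18.8 for HM and 12.2 for HF, and its neighbour in the same host, Snord57, at 13.2, 12.9, 15.0, 10.8 and 12.0. The listed means of these 2 RNAs of 1 host differed from Control in opposite directions in HM, by 0.47 and -0.28. Snord110 had 42 read equivalents in Control and 60 for HM, and Snord57 had 44 and 36. With so few reads and no replicate check, the directions are uncertain.

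In HF 31 of 42 members were higher than in Control, against 10240 of all 17479 genes. The member median was 0.24, against 0.02 over all genes. At 1.5-fold 5 were higher (11.9%, against 0.652% of all genes) and 0 lower (against 0.172%). The 5 were Snord87 (1.21), Snord53 (1.13), Snord67 (0.91), Snord88c (0.67) and Snord35b (0.61), all under 10 RPKM. Snord53, in the ribosome biogenesis gene Wdr43, was at 1.65 RPKM in Control, 1.58 for PGM, 2.99 for PGF, 2.88 for HM and 4.21 for HF, with PGF, HM and HF above Control and PGM. The 9 members of at least 100 RPKM were all higher than in Control, by 0.08 to 0.33.

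The shares counted have to be read against the small number of reads. The 70 microRNA genes that passed the filter also give short RNAs and had a median of 2.60 RPKM. Among the 69 of these with a difference, 13.0% were counted higher and 20.3% lower in PGM, 13.0% and 15.9% in PGF, 17.4% and 10.1% in HM, and 15.9% and 10.1% in HF. Low genes of this kind were thus often counted in both directions. Of the counted C/D members, 7 of 10 were higher in PGM, 11 of 12 for PGF, 7 of 7 for HM and 5 of 5 for HF, and their difference from the microRNA genes was not tested. The microRNA medians against Control lay between -0.03 and 0.06.

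PGM and PGF were also compared with each other, as were HM and HF. In PGM 31 of 41 members were lower than in PGF, against 6545 of all 17480 genes. The member median was -0.12, against 0.03 over all genes. At 1.5-fold 2 were higher (4.88%, against 0.429% of all genes), Snord1b (1.30) and Snord1c (0.97), and 2 lower (4.88%, against 0.555%), Snord67 (-1.04) and Snord53 (-0.75). Snord1b and Snord1c are the near-identical pair, with 14 and 8 read equivalents in PGM and 5 and 3 for PGF. They are not separate evidence. Snord22 differed by -0.45 and Snord16a by -0.38. HM and HF were level over the list, with 20 members higher and 22 lower in HM and a median of -0.01 against -0.05 over all genes. Of all 17480 genes, 5424 were higher and 11994 lower in HM. There 5 members were higher at 1.5-fold (11.9%, against 0.36% of all genes) and 2 lower (4.76%, against 1.31%). The higher ones were Snord4a (0.80), Snord45c (0.79), Snord100 (0.71), Snord69 (0.64) and Snord110 (0.60), and the lower ones Snord35b (-0.75) and Snord71 (-0.65). Of the 70 microRNA genes, 15.7% were counted higher and 11.4% lower in PGM against PGF. In HM against HF these shares were 11.4% and 14.3%. The member shares thus did not exceed those of the microRNA genes by much in any direction, and their difference was not tested. Snord35b, a guide for the large subunit RNA, was at 5.16 RPKM in Control, 9.37 for PGM, 9.71 for PGF, 4.65 for HM and 8.14 for HF, with Control and HM low.

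By target, the 14 guides for the large subunit RNA had median differences from Control of 0.20 for PGM, 0.35 for PGF, 0.18 for HM and 0.26 for HF, and the 9 guides for the small subunit RNA had 0.31, 0.38, 0.26 and 0.02. The 3 guides for U6 RNA, Snord7, Snord8 and Snord67, were higher than Control in every group, as most members were. Some of these differences were close to 0, such as 0.03 for Snord8 in PGM and 0.04 for Snord7 in HF. Snord8, in the chromatin remodeller gene Chd8, was the abundant one of the 3 guides, at 280 RPKM in Control, 285 for PGM, 337 for PGF, 318 for HM and 325 for HF. Members that share a host did not have the same direction in each case, though some of these differences rest on few reads. In Rpl13a, Snord33 was at 68.8 RPKM in Control, 86.6 for PGM, 90.6 for PGF, 62.1 for HM and 69.9 for HF, while its neighbours Snord35a and Snord34 lay at 13.6 to 19.4 and 1.77 to 2.32 RPKM. In HM Snord33 differed by -0.15 and Snord35a by 0.25. Their read equivalents in Control and HM were 268 and 244 for Snord33 and 57 and 68 for Snord35a. In the noncoding gene 2410006H16Rik, Snord49b was at 57.7 RPKM in Control, 78.9 for PGM, 77.4 for PGF, 72.9 for HM and 78.3 for HF. Snord49a was at 17.5, 23.6, 24.9, 21.2 and 15.1. In HF the pair had opposite signs, but Snord49a had 58 read equivalents in Control and 52 for HF, a small difference.

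The listed values of host genes differed less between groups than those of the snoRNAs they carry. Of the 42 snoRNA genes, 22 lay under 10 RPKM, where values varied more between groups. The part of low read numbers in the wider spread of snoRNAs was not tested. Across 31 hosts the medians were 0.06 for PGM against Control, 0.04 for PGF, 0.03 for HM and 0.06 for HF, and 1 host, Snhg1 in PGF, reached 1.5-fold. The SD was 0.45 for snoRNAs and 0.19 for hosts over 37 pairs in PGF, where Snord111 has no difference, and 0.40 and 0.09 over 38 pairs in HF. The snoRNA minus host difference had a median of 0.14 for PGM, 0.28 for PGF, 0.22 for HM and 0.12 for HF, over 37 members in PGF and 38 in the other groups. For PGM against PGF it was -0.16 over 37 members, and for HM against HF it was 0.006, too close to 0 to give a direction. For 26 of 37 members in PGF, the difference from Control lay above that of the host. In PGF Rpl4, the host of Snord16a, stood at 605 RPKM and in Control at 609.98, and Gltscr2, the host of Snord23, stood at 80.9 and 79.5 RPKM. Their snoRNAs were 1.76-fold and 1.87-fold higher in the same libraries.

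Snord22 and its host had the same order of groups. The noncoding gene Snhg1 was at 62.3 RPKM in Control, 83.4 for PGM, 110.0 for PGF, 64.9 for HM and 74.99 for HF, the mean of 2 transcripts. Of these, uc008gmk.2 was at 105.03 RPKM in Control, 144 for PGM, 194.5 for PGF, 109 for HM and 129 for HF, and the ratio of Snord22 to it lay between 16.9 and 17.3 in all 5 groups. The other transcript, uc008gmj.2, was at 19.5, 23.0, 25.5, 21.2 and 21.2 RPKM, and the ratio to it lay between 86.7 and 132. Snord22 stands whole within 3 annotated Snhg1 transcripts, so reads of the snoRNA and of its host cannot be told apart here, and the 2 values are not independent measurements.

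**Figure D5:**
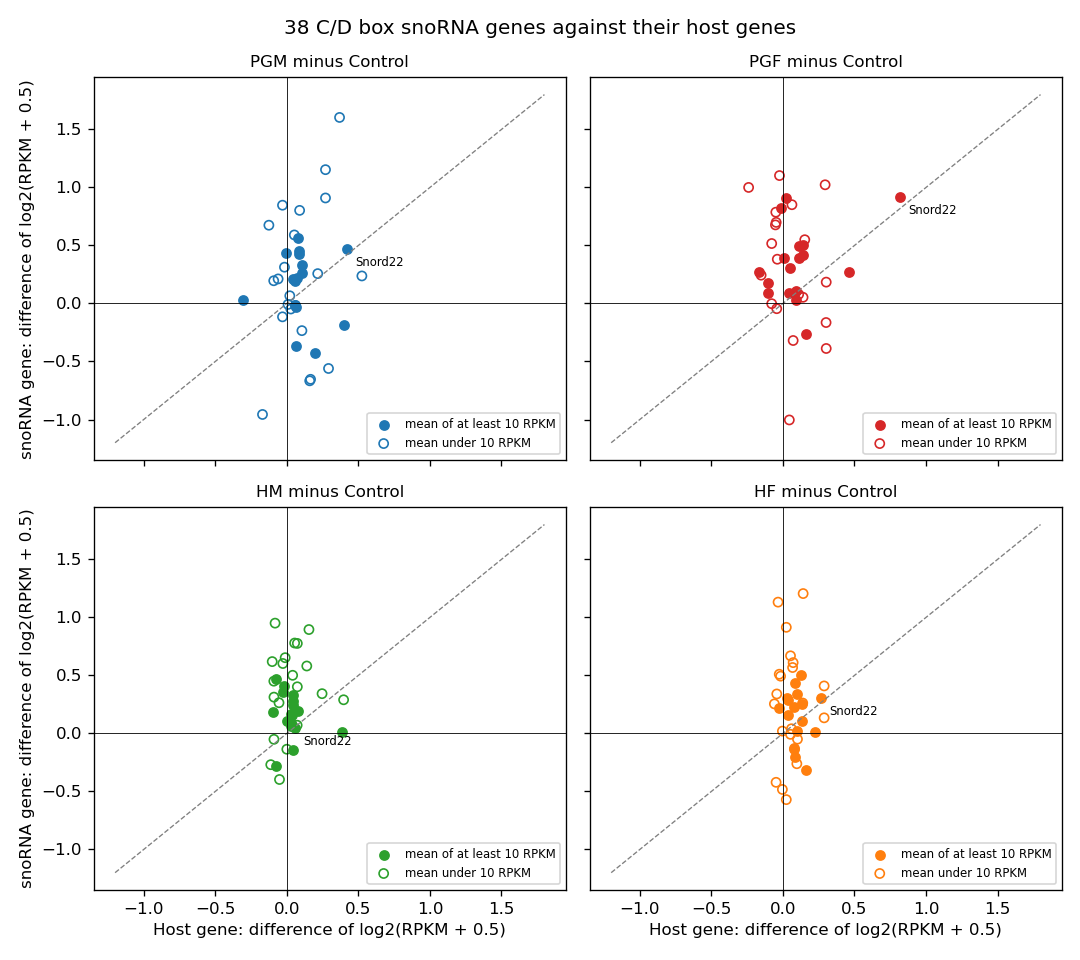
Difference of log2(RPKM + 0.5) from Control of each snoRNA gene (vertical) against that of its host gene (horizontal) for 38 C/D genes (37 in PGF); filled points have a mean of at least 10 RPKM and the dashed line marks equality. Hosts lie close to 0 while snoRNAs spread widely, and Snord22 in PGF is the point far to the right.

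The RNA of genes for proteins that bind and assemble these snoRNAs stayed under 1.5-fold. None of the 4 core protein genes reached 1.5-fold in any of the 6 comparisons. Of all genes, between 0.172% and 2.34% were counted in each direction, so counts of 0 in such short lists say little. Fbl, the methyltransferase fibrillarin, was at 17.1 RPKM in Control, 18.2 for PGM, 18.9 for PGF, 18.7 for HM and 16.6 for HF. Nop58 was at 47.0, 43.1, 39.8, 43.8 and 46.2 RPKM, lowest in PGF, where most snoRNAs were higher. Of 7 assembly genes 0 were counted, and Znhit6, which helps to build the C/D particle, differed most, at 10.2 RPKM in Control, 7.0 for PGM, 7.05 for PGF, 8.19 for HM and 8.65 for HF. Tgs1, the enzyme that hypermethylates the cap of some snoRNAs, was at 18.7, 13.6, 14.8, 15.5 and 16.6 RPKM. The 3 genes of maturation and transport also had 0 counted. The 10 genes of ribosomal RNA synthesis and processing had medians between -0.10 and 0.03 in the 6 comparisons, and 0 were counted.

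Of 8 genes at the imprinted loci, 2 were counted in PGM against Control, Meg3 higher (0.67) and Dlk1 lower (-0.67), and 0 in PGF, HM or HF. In PGM 2.34% of all genes were higher and 2.29% lower, and in the other groups 0.172% to 2.15% in each direction. Meg3 was also higher in PGM than in PGF (0.70). Snrpn, the gene upstream of Snord116, was at 735 RPKM in Control, 681 for PGM, 712 for PGF, 666 for HM and 711 for HF, the highest 1.10 times the lowest. Magel2, a neighbour in the same imprinted region, was lower in each group than in Control, at 14.0, 10.4, 9.53, 11.9 and 12.5 RPKM. Rian, host of the Snord113 and Snord114 families, was at 616 RPKM in Control, 717 for PGM, 592 for PGF, 613 for HM and 651 for HF. Members of those families and of Snord115 are not analysed here.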

How the data were processed

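The deposited table gives RPKM with 2 decimals, already averaged by the authors within each group of 3 samples, per the file headers. Reads were checked with FastQC and aligned with Novoalign 2.08 to mm10, per the submitters' processing notes. The counting program, library depth, strand use and handling of shared reads were not given in the sources used here. No values per sample were used, so limma and pairing could not be run. RPKM depends on what other genes take of a library.

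For each gene name the median of its transcripts (49404 in all) was taken, and genes averaging 1 RPKM or more were kept. Differences are of log2(RPKM + 0.5) on the authors' scaling; a gene listed at 0 in a group has none in comparisons with that group. Positions, lengths and sequences come from GENCODE M21, and 2 hosts were found through a RefSeq synonym. Named genes were the 5 with the largest difference in each direction of each comparison among those reaching 2 RPKM in a group compared, the 10 most abundant, imprinted members, hosts, members sharing a host with 2 or more others, and partner genes; others were chosen after their values were seen, as were target and host classes. Hba-a1 was not found. Members, lists and the Mir comparison were chosen with earlier results of these data known. The calculation was tested on simulated data, copies of the Control values with little noise and known folds put only into genes above 5 RPKM. It therefore does not show how often members on few reads are counted. Python 3.11.15, numpy 2.4.6, pandas 2.3.3, Biopython 1.88 and matplotlib 3.10.9 were used.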

Additional observations from a re-analysis of the deposited data

How the results depend on the processing

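No paired analysis was possible because only group means were used, and for the same reason no sample could be left out. Of 218 values recomputed under 11 alternatives, 180 stayed within 1.5 times the count or 0.1 of the median reported. A change of sign was seen in 4 medians, all for HM against HF and close to 0: the member median, reported as -0.009, was 0.018 under upper quartile scaling. The member minus host median, reported as 0.006, was -0.012 for members of at least 10 RPKM, -0.003 for hosts of at least 10 RPKM and -0.010 at a pseudocount of 0.1 RPKM. Upper quartile scaling, hosts of at least 10 RPKM and leaving out Snord22 moved none of the values beyond those limits. Taking the highest or the mean transcript per gene could not move them, because each kept member has 1 listed transcript. The 20 values of each of these 2 alternatives are among the 180 and say nothing about the results. Alternatives limited to members of at least 10 RPKM and those without Snord22 were chosen after seeing the data. At least 10 RPKM left 20 members: 0 higher in PGM, HM and HF against Control, 4 for PGF, 0 between PGM and PGF and 1 between HM and HF, with 0 lower in PGM, PGF, PGM against PGF and HM against HF, Control lowest in 11 and PGF highest in 11. At 2-fold, members higher numbered 2 for PGM, 3 for PGF, 0 for HM and 2 for HF, and 1 between PGM and PGF and 0 between HM and HF; 0 were lower in PGM, 1 between PGM and PGF and 0 between HM and HF. A mean of at least 3 RPKM left 3 higher in PGM, 4 for HM, 3 for HF and 0 for PGM against PGF, and 1 lower in PGM and 1 for PGM against PGF. Without a filter the median in PGM was 0.051, and 6 were lower in PGM, 3 for HM, 1 for HF, 4 between PGM and PGF and 4 between HM and HF. A pseudocount of 1 RPKM gave 4 higher in HM, 3 higher and 1 lower in HM against HF, and 1 lower in PGM, and one of 0.1 RPKM gave 1 lower in HF. Outside PGF, 1 counted member had at least 10 RPKM, Snord110 in HM against HF. Fewer genes tested lowers a count by construction, and other causes were not tested.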
